A study of Homo sapiens with 96 samples.

Results

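The response of HaCaT-PIK3CA cells to the ERBB kinase inhibitor afatinib was read from 6 of the 96 expression arrays of the series. Members were chosen by their labels: cell line HaCaT-PIK3CA, no siRNA, and either afatinib at 10 nM (3 arrays) or PBS as the control (3 arrays). HaCaT is an immortalized human keratinocyte line. The afatinib cells and the PBS cells both carried a lentiviral construct in which the CMV promoter drives an activating mutant of PIK3CA, were selected with puromycin, and were harvested after a day of treatment. In each group replicates 1 and 2 were array batch J and replicate 3 was batch M. Nothing in the labels says that replicates were grown as separate cultures. The p-values thus measure only the spread between arrays of the same group, pooled over 89 HaCaT construct arrays. That spread may be technical. The series asks how cells with activated EGFR, RAS or PI3K signalling respond to EGFR inhibition. For comparison, HaCaT-Mock cells with an empty construct (3 afatinib and 3 PBS arrays) and HaCaT-HRAS cells with mutant HRAS (3 and 3) are used. The HaCaT-Mock afatinib arrays were from batches J, E and M and its PBS arrays from J, J and E. Its batch M afatinib array thus had no PBS array of the line, and its comparisons rest on the batch adjustment. HaCaT-EGFR cells, which overexpress wild-type EGFR, served to place single arrays. Arrays with scramble siRNA, EGFR siRNA, gefitinib or cetuximab are also used. The mutant PIK3CA transcript itself is not analysed here.

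EGFR is the main growth factor receptor of keratinocytes. On binding ligands such as amphiregulin, HB-EGF or TGF-alpha it dimerizes with itself or with ERBB2 or ERBB3 and signals through RAS and the kinase ERK, and through PI 3-kinase and AKT. ERK drives immediate early genes and its own feedback inhibitors, while AKT keeps the FOXO transcription factors out of the nucleus. Afatinib binds EGFR, ERBB2 and ERBB4 covalently at the kinase domain. A PIK3CA mutation acts downstream of the receptor on the PI 3-kinase arm and leaves the RAS arm dependent on upstream input. EGFR activity holds back keratinocyte differentiation and interferon responses in skin.

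All values are log2 expression levels of 1 probe set per gene, as deposited, for 19775 genes, and a change is a difference of log2 levels from a linear model over all 89 HaCaT construct arrays with array batch as a term (limma, with its standard error). A gene was taken as changed at a Benjamini-Hochberg adjusted p under 0.05. The cells matched their label as keratinocytes. The level averaged over keratinocyte markers was 10.58 to 11.73 over the afatinib arrays and 10.96 to 11.36 over the PBS arrays. Markers of fibroblasts, melanocytes, endothelium and immune cells averaged between 4.37 and 5.49 in afatinib arrays and between 4.28 and 5.27 in PBS arrays, below the median gene level of 6.10. Of 3 endothelial markers 1 rose with all arrays and 2 without replicate 1, where 5.17% and 9.62% of all genes rose. The endothelial marker VWF had 4.77, 5.87 and 6.01 in afatinib replicates 1, 2 and 3, against 4.78, 4.68 and 4.68 in the PBS arrays, and its part in the other results was not tested.

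The array labelled afatinib replicate 1 stood apart from the other afatinib arrays, and main results are therefore given with and without it. It was placed first on the 5641 genes that afatinib changed in HaCaT-Mock cells. Of these, 2919 were higher (14.8% of all genes tested) and 2722 lower (13.8%). That comparison is between HaCaT-Mock arrays. Its batch terms and spread came from the fit over all 89 arrays, which include those of HaCaT-PIK3CA. Relative to the PBS arrays of its batch, the array labelled afatinib replicate 1 moved in the HaCaT-Mock direction for 47.3% of these genes. Replicate 2 did so for 94.8% and replicate 3 for 94.5%. Its median difference, turned to the HaCaT-Mock direction, was -0.01, while that of replicate 2 was 0.29 and that of replicate 3 was 0.28. The number of genes at least 1 higher than PBS was 10 in replicate 1, 208 in replicate 2 and 171 in replicate 3. Between the PBS arrays of batch J only 1 gene differed that far upwards.

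The same array carried the changes seen in cells that received a scramble siRNA, although its label gives no siRNA. This check was chosen after the values were seen. In HaCaT-Mock cells the scramble siRNA arrays differed from the PBS arrays at 1338 genes (331 higher, 1.67% of all genes; 1007 lower, 5.09%). The array labelled afatinib replicate 1 went the same way as the scramble siRNA at 1171 of them (87.5%), with a median of 0.22. HaCaT-PIK3CA arrays labelled scramble siRNA went the same way at 94.6% and 96.6%, and afatinib replicates 2 and 3 at 30.8% and 33.7%. Another 36 arrays have no siRNA and a further PBS array of their line and batch, and their share lay between 22.4% and 70.9%. HaCaT-Mock arrays among them were placed on the 1073 scramble siRNA genes of HaCaT-EGFR cells instead. The highest share was that of a HaCaT-PIK3CA PBS array set against the other PBS array of batch J. Likeness was also taken over the 9888 genes at or above the median level, after each gene's batch mean was removed. The 8 batch J arrays most like the array labelled afatinib replicate 1 were all labelled scramble siRNA (r = 0.72 to 0.87 across genes). The next, also with scramble siRNA, was at 0.38.

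Its place between the lines differed by measure. Over those 9888 genes the single most similar array was of its own line, HaCaT-PIK3CA with PBS and scramble siRNA (r = 0.87), followed by a HaCaT-Mock array with scramble siRNA (r = 0.82). From that HaCaT-PIK3CA array it was at least 1 higher at 5 genes and at least 1 lower at 2, with a standard deviation over genes of 0.196, against 0.205 between the batch J PBS arrays. Genes that separate the lines gave another order. A fit without this array gave 96 genes that differed between HaCaT-PIK3CA and HaCaT-Mock cells under PBS. The array labelled afatinib replicate 1 was closer to the HaCaT-PIK3CA PBS mean than to the HaCaT-Mock PBS mean at 23 of them. The other 9 HaCaT-PIK3CA arrays of batch J outside the PBS group were closer at 47 to 57 genes, and 10 HaCaT-Mock arrays at 18 to 31, so the ranges of the lines did not overlap and this array lay within that of HaCaT-Mock. The remaining HaCaT-Mock array, labelled PBS with scramble siRNA, was closer to HaCaT-PIK3CA at 42 genes. That array followed the scramble siRNA genes of HaCaT-EGFR cells at 33.2% and their afatinib genes at 91.1%. The cause was not tested, and no array was moved to another group. In the array labelled afatinib replicate 1 the 3′ to 5′ difference of the actin control probes, a measure of RNA integrity, was 1.18 against a batch J median of 1.35.

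**Figure D1:**
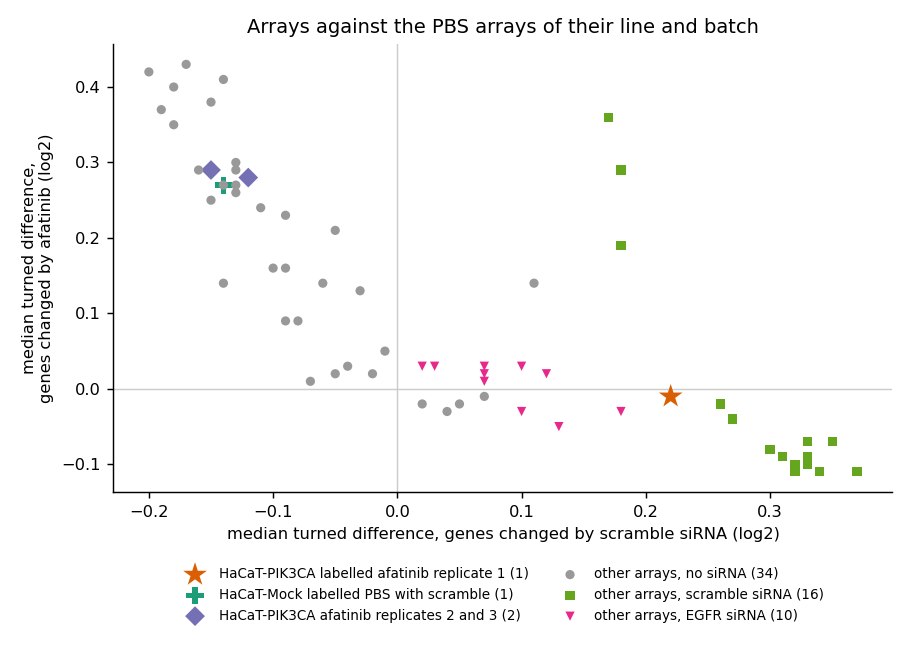
Position of 64 HaCaT construct arrays on 2 sets of genes taken from another line. The x axis is the median log2 difference from PBS on the scramble siRNA genes and the y axis the median on the afatinib genes, both turned so that a positive value is the direction seen in the other line; the array labelled afatinib replicate 1 sits at 0.22 and -0.01, close to the arrays with scramble siRNA and PBS and far from afatinib replicates 2 and 3.

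With all 6 arrays, afatinib raised 1023 genes (5.17% of the 19775 tested) and lowered 815 (4.12%) in HaCaT-PIK3CA cells, 71 and 32 of them by at least 1. Without the array labelled afatinib replicate 1 it raised 1902 genes (9.62%) and lowered 1683 (8.51%), 175 and 74 of them by at least 1. Since that array was singled out by its values, the larger numbers follow from leaving it out and are no evidence for doing so. Of the genes changed with all arrays, 1712 were changed in the same direction without it and 126 were not. Of those 126, 50 (39.7%) were genes that the scramble siRNA moved in the same direction in HaCaT-Mock cells and 1 in the opposite direction. Among the 1873 genes changed only without the array, 4 went with the scramble siRNA and 290 went against it. Both sets were formed by keeping or leaving out an array that follows the scramble siRNA genes, so these splits are no further evidence.

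Among genes expressed at the median level or higher, the 8 with the largest rises included a pair of epithelial keratins. KRT4, a keratin of the upper layers of non-cornified epithelia, had log2 levels of 6.10, 9.13 and 9.21 in afatinib replicates 1, 2 and 3, against 5.76, 5.77 and 5.93 in the PBS arrays. The groups did not overlap, but replicate 1 lay just above the highest PBS array and far below the other afatinib arrays. The change was 2.33 ± 0.30 (SE, limma adjusted p = 2e-07) with all arrays and 3.31 ± 0.16 (adjusted p = 3.5e-23) without replicate 1. Its pairing partner KRT13 had 8.78, 11.52 and 11.65 under afatinib and 8.69, 8.68 and 8.93 under PBS. Replicate 1 was within the PBS range for KRT13, and the change was 1.88 ± 0.31 with all arrays and 2.78 ± 0.22 without it. CYP4F3, which inactivates leukotriene B4 by hydroxylation, had 4.98, 7.34 and 7.11 against 4.49, 3.84 and 4.27. It was higher in every afatinib array than in any PBS array (2.28 ± 0.29 with all arrays, 3.03 ± 0.22 without replicate 1).

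TNFSF10, which encodes the death ligand TRAIL, had 7.07, 8.61 and 8.20 under afatinib against 6.45, 6.55 and 5.74 under PBS, with no overlap (1.71 ± 0.22 and 2.22 ± 0.19). TRIM22, an interferon-induced ubiquitin ligase, had 6.38, 8.85 and 8.66 against 6.57, 6.43 and 5.99, and replicate 1 lay inside the PBS range (1.63 ± 0.28 and 2.45 ± 0.19). TNFAIP2, a gene induced by TNF, had 6.29, 8.71 and 8.96 against 6.38, 6.39 and 6.44, and here replicate 1 was below every PBS array (1.58 ± 0.25 and 2.39 ± 0.14). The methyltransferase gene TMT1A had 7.04, 8.47 and 7.88 against 6.13, 6.26 and 5.93, with no overlap (1.69 ± 0.21 and 2.12 ± 0.19). MPPED2, a metallophosphoesterase, had the largest rise of these 8 genes with all arrays, and the fourth largest without replicate 1, with 6.58, 7.71 and 7.12 against 4.6, 5.01 and 4.67 (2.38 ± 0.17 and 2.69 ± 0.17). HaCaT-Mock PBS arrays had MPPED2 levels of 6.5, 5.8 and 6.51, and HaCaT-Mock scramble siRNA arrays of batch J 6.05 and 5.77, near the level of the array labelled afatinib replicate 1.

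The 8 largest falls included DUSP6, ETV5, FOSL1 and EGR1, which belong to the MAPK outputs described further on, and 4 other genes. IL1B, the cytokine interleukin 1 beta, had 8.90, 8.57 and 8.67 under afatinib against 10.08, 10.06 and 10.13 under PBS (-1.38 ± 0.12, adjusted p = 1.2e-12; -1.48 ± 0.13 without replicate 1). MMP9, a gelatinase, had 7.35, 6.74 and 7.04 against 9.01, 8.57 and 8.66 (-1.70 ± 0.18 and -1.87 ± 0.20). For both genes all 3 afatinib arrays, replicate 1 included, were below all PBS arrays. HaCaT-PIK3CA arrays with scramble siRNA alone were also below PBS, by 0.31 and 0.42 for IL1B and by 0.99 and 1.03 for MMP9. RGCC, a regulator of the cell cycle, had 6.66, 4.72 and 3.98 against 6.99, 7.05 and 6.47, with replicate 1 inside the PBS range (-1.72 ± 0.25 and -2.42 ± 0.17). NT5E, the ectonucleotidase CD73, had 8.69, 6.21 and 5.67 against 8.63, 8.80 and 8.20, again with replicate 1 among the PBS arrays (-1.69 ± 0.26 and -2.51 ± 0.16).

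**Figure D2:**
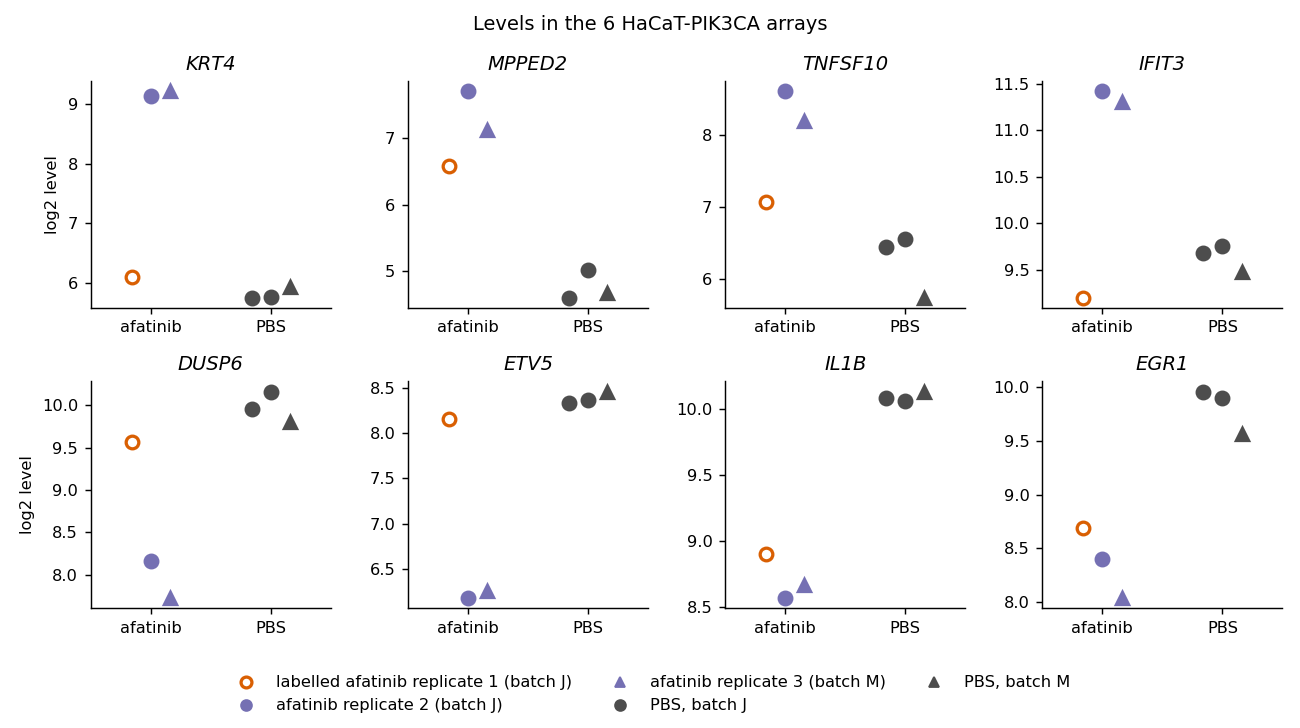
Log2 level of 8 genes in each HaCaT-PIK3CA array, afatinib left and PBS right, with the array labelled afatinib replicate 1 as an open marker and batch M as triangles. Afatinib replicates 2 and 3 lie close together and apart from PBS in every panel, while replicate 1 lies near PBS for KRT4, IFIT3, DUSP6 and ETV5 and with the other afatinib arrays for IL1B and EGR1.

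Genes that report ERK activity fell as a group. Of 23 measured MAPK output and feedback genes, 13 fell and none rose with all arrays, and 15 fell and none rose without replicate 1. Among all genes, 4.12% fell with all arrays and 8.51% without replicate 1. The list median was -0.52 and -0.70, where the median over all genes was 0.002 and 0. By array, the list median was -0.21 in replicate 1, -0.70 in replicate 2 and -0.68 in replicate 3. DUSP6, the phosphatase that inactivates ERK, had 9.57, 8.16 and 7.73 under afatinib and 9.96, 10.16 and 9.80 under PBS (-1.49 ± 0.21 and -1.98 ± 0.18). All afatinib arrays were below all PBS arrays, replicate 1 by the smallest margin. ETV5, an ETS transcription factor induced by ERK, had 8.16, 6.18 and 6.25 against 8.33, 8.37 and 8.46, without overlap (-1.52 ± 0.23 and -2.17 ± 0.16). FOSL1, the AP-1 subunit stabilized by ERK, had 8.27, 6.12 and 6.74 against 8.47, 8.33 and 8.84 (-1.5 ± 0.24 and -2.19 ± 0.17), and IER3 had 10.11, 9.04 and 9.18 against 10.50, 10.38 and 10.54 (-1.03 ± 0.12 and -1.39 ± 0.07). Both genes were lower in every afatinib array, by a small margin in replicate 1. The feedback inhibitors SPRY2 and SPRY4 fell by 0.52 and 0.67 with all arrays. FOS, an immediate early gene (-0.22, adjusted p = 0.57), and CCND1, cyclin D1 (-0.19, adjusted p = 0.37), did not pass the test in either fit.

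EGR1, an immediate early transcription factor whose promoter binds serum response factor, had 8.69, 8.40 and 8.04 under afatinib against 9.96, 9.90 and 9.57 under PBS. The groups did not overlap, and replicate 1 lay nearer to the other afatinib arrays than to PBS. The change was -1.43 ± 0.16 (adjusted p = 4.6e-09) and -1.53 ± 0.18 without replicate 1. HaCaT-PIK3CA scramble siRNA arrays were 1.05 and 1.12 below PBS for this gene as well. Its promoter is shown because serum response factor is a target of ERK signalling. Within the 300-base window around the start site (RefSeq, GRCh38.p14) it holds 2 CArG boxes, the element bound by serum response factor, which are in capitals and were searched on both strands. The stretch shown, with flanking bases, lies between 125 and 54 bases before the start, at chr5:138465354-138465425 on the plus strand.
EGR1: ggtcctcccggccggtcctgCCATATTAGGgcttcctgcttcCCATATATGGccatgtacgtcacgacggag
Of the 14 listed MAPK genes with a promoter window, EGR1 was the only 1 to hold a CArG box, against 438 of 27305 genes (1.6%) overall.

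Among the receptors, ERBB3, the kinase-impaired partner of ERBB2, had 8.18, 8.54 and 8.33 under afatinib against 8.08, 8.06 and 7.84 under PBS. All afatinib arrays were above all PBS arrays and ERBB3 rose by 0.35 ± 0.08 (adjusted p = 0.00099) and 0.46 ± 0.08 without replicate 1. ERBB2 had 7.94, 8.33 and 8.71 against 7.83, 7.97 and 8.34, which overlap, and batch M was higher in both groups (0.28 ± 0.09, adjusted p = 0.046; 0.41 ± 0.10, adjusted p = 0.0011). EGFR had 10.70, 11.04 and 10.29 against 10.85, 10.91 and 10.18 (0.03 ± 0.10, adjusted p = 0.92; 0.12 ± 0.10, adjusted p = 0.51 without replicate 1). The groups overlapped, and none of the 9 EGFR probe sets had an unadjusted p under 0.05 with all arrays. TFAP2A, the transcription factor AP-2alpha, had 9.56, 9.90 and 9.63 against 9.57, 9.59 and 9.33, with overlap, and rose by 0.20 ± 0.06 (adjusted p = 0.015) and 0.29 ± 0.06 without replicate 1.

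The study singled out targets of AP-2alpha, and these were chosen on arrays that include the present ones, so their direction on these arrays is no independent evidence. The study also measured such targets by RT-PCR after afatinib in HaCaT-PIK3CA cells. It describes the changes of the targets in that line as consistent, and reports that the genes listed as falling decreased. Those RT-PCR values are not examined here. Of 5 measured targets listed as rising, only ERBB2 passed the test, and with all arrays 11 of 17 alternatives ended that call (adjusted p up to 0.67). IGF1R had 9.35, 9.48 and 9.04 against 9.18, 9.29 and 8.79 (0.20, adjusted p = 0.11), and BMP4 (0.06) and BMP2 (-0.16) had adjusted p of 0.80 and 0.55. Of 4 targets listed as falling, 3 fell. Rises made up 5.17% and falls 4.12% of all genes with all arrays, and 9.62% and 8.51% without replicate 1. VEGFA, the angiogenic growth factor, had 9.48, 9.74 and 9.57 against 10.27, 10.42 and 10.19 without overlap and fell by 0.70 (adjusted p = 5.9e-05). TGFBR3, a TGF-beta coreceptor, had 5.88, 4.91 and 4.78 against 5.94, 5.94 and 5.62, with replicate 1 inside the PBS range, and fell by 0.65 (adjusted p = 0.0028). TGFA, an EGFR ligand, had 9.41, 9.34 and 9.21 against 9.82, 9.88 and 9.52 and fell by 0.42 (adjusted p = 0.018). With all arrays 8 of 17 alternatives ended the call on TGFA (adjusted p up to 0.31) and 8 of 17 that on TFAP2A (up to 0.63). FGFR4 had a change of -0.26 (adjusted p = 0.22).

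Ligands of the ERBB receptors fell more often than they rose, 4 against 1 of 8 measured with all arrays and 4 against 1 without replicate 1. The shares of all genes that fell and rose were 4.12% and 5.17% with all arrays, and 8.51% and 9.62% without it. HBEGF had 7, 6.35 and 6.59 under afatinib against 7.80, 7.88 and 7.91 under PBS (-1.22 ± 0.11, adjusted p = 2.4e-12). NRG1, a ligand of ERBB3, had 9.57, 9.32 and 8.88 against 10.24, 10.57 and 10.08 (-1.04 ± 0.13, adjusted p = 3.7e-08). EREG, epiregulin, had 6.24, 6.41 and 5.68 against 7.21, 7.69 and 6.82 (-1.13 ± 0.24, adjusted p = 0.00077). For all 3 ligands every afatinib array, replicate 1 included, was below every PBS array, and the scramble siRNA arrays of the line were below PBS too, by 0.84 in both for EREG. The ligand that passed the test upwards was NRG4 with all arrays (0.52, adjusted p = 0.016) and BTC, betacellulin, without replicate 1 (0.54, adjusted p = 0.015).

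The PI 3-kinase arm carries the mutation of this line. Of 19 measured FOXO targets, 6 rose and 1 fell with all arrays, and 10 rose and 2 fell without replicate 1. Over all genes, 5.17% rose and 4.12% fell with all arrays, and 9.62% and 8.51% without replicate 1. TXNIP, an inhibitor of thioredoxin and of glucose uptake, had 9.37, 10.37 and 10.25 against 8.56, 8.37 and 8.57 with no overlap (1.5 ± 0.19 and 1.8 ± 0.19). PIK3IP1, an inhibitor of PI 3-kinase, rose by 0.63 (adjusted p = 0.0066) and by 1.02 without replicate 1. IRS2, the insulin receptor substrate, had 9.28, 9.89 and 9.64 against 10.27, 10.28 and 10.03, without overlap, and fell by 0.60 (adjusted p = 0.0024). Replicate 1 was the lowest IRS2 array, and scramble siRNA arrays were 0.85 and 0.81 below PBS. Among 16 measured PI3K pathway components 3 rose and 2 fell with all arrays, and 5 rose and 2 fell without replicate 1, with a list median of -0.01 and 0. The largest of these besides PIK3IP1 was PIK3R3, a regulatory subunit (0.58, adjusted p = 0.0038). INPP4B, a phosphoinositide phosphatase, had 8.89, 8.87 and 8.83 against 9.26, 9.24 and 9.23 and fell by 0.38 (adjusted p = 7.5e-05), in all arrays alike.

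Keratinocyte differentiation genes moved in part. Of 13 measured suprabasal genes 4 rose and none fell in either fit, namely KRT4, KRT13, IVL and KRT1. Rises made up 5.17% and falls 4.12% of all genes with all arrays, and 9.62% and 8.51% without replicate 1. IVL, involucrin of the cornified envelope, had 6.59, 8.37 and 7.93 against 6.34, 6.25 and 6.15 (1.38 ± 0.18, adjusted p = 1.2e-07; 1.94 ± 0.10). KRT1, a keratin of the epidermal spinous layer, had 5.30, 6.24 and 5.91 against 4.79, 4.96 and 5.01 (0.90 ± 0.25, adjusted p = 0.014). Both were higher in every afatinib array. The partner keratin of KRT1, KRT10, had a change of 0.16 (adjusted p = 0.099). Of 10 measured basal keratinocyte genes 2 rose and 3 fell with all arrays, and 4 rose and 3 fell without replicate 1, with list medians of -0.08 and -0.11. The rises with all arrays were in the basal keratins KRT15 and KRT5, and KRT14, the partner of KRT5, had 0.30 (adjusted p = 0.25; 0.69, adjusted p = 1.8e-05 without replicate 1). The falls were in the integrin chains ITGA3 (-0.32) and ITGA6 (-0.30) and in the laminin chain LAMB3 (-0.36), of which LAMB3 did not pass without replicate 1 (-0.16, adjusted p = 0.39) while DST, a hemidesmosomal linker, did (-0.45). KRT15 had 10.66, 12.25 and 12.25 against 10.36, 10.13 and 10.34 (1.44 ± 0.18 and 1.95 ± 0.12), and KRT5 had 10.72, 12.18 and 12.90 against 10.71, 10.79 and 11.92 (0.79 ± 0.16 and 1.24 ± 0.11). KRT15 did not overlap between the groups, while for KRT5 replicate 1 lay among the PBS arrays of its batch. Within the cornified envelope list, the crosslinking enzyme TGM1 rose by 1.06 and 1.68 and the small proline-rich protein SPRR1B fell by 0.64 and 0.72, and the list of 15 held 3 rises and 3 falls with all arrays.

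Epithelial junction genes rose in 4 of 15 with all arrays and in 10 of 15 without replicate 1, with none falling. In the same fits 5.17% and 9.62% of all genes rose, and 4.12% and 8.51% fell. The list medians were 0.29 and 0.56. The median was -0.14 in replicate 1, 0.57 in replicate 2 and 0.58 in replicate 3, and in the scramble siRNA arrays it was -0.23 and -0.19. PKP1, a desmosomal plakophilin, had 8.82, 9.96 and 10.15 against 8.93, 8.90 and 9.15 (0.65 ± 0.14 and 1.01 ± 0.11), with replicate 1 below every PBS array. TJP3, a tight junction scaffold, had 5.06, 6.38 and 6.03 against 4.91, 4.73 and 5 (0.94 ± 0.16 and 1.31 ± 0.14), without overlap. DSC2, a desmosomal cadherin, had 10.22, 10.10 and 9.94 against 9.48, 9.58 and 9.43 (0.59 ± 0.09 and 0.56 ± 0.10) and was higher in all 3 afatinib arrays, but the scramble siRNA arrays were also 0.41 and 0.44 above PBS. Of 9 mesenchymal genes 1 rose and 3 fell in either fit. SPARC, a matrix glycoprotein, rose by 0.56 (adjusted p = 1.5e-05) and by 0.80 without replicate 1, and VIM, FN1 and CDH2 fell. VIM, the mesenchymal filament vimentin, had 7.11, 6.60 and 6.63 against 7.83, 7.74 and 7.62 and fell by 0.95 ± 0.11 (adjusted p = 3.1e-08) and 1.11 ± 0.12, with no overlap.

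Interferon response genes rose without replicate 1 and stood near PBS in that array. Of 19 measured, 9 rose and none fell with all arrays, and 12 rose and none fell without replicate 1. Among all genes, 5.17% rose with all arrays and 9.62% without replicate 1. The list median was -0.10 in replicate 1, 1.11 in replicate 2 and 1.10 in replicate 3. IFIT3, an interferon-induced antiviral protein, had 9.20, 11.42 and 11.30 under afatinib against 9.68, 9.75 and 9.48 under PBS (1.00 ± 0.23, adjusted p = 0.0019; 1.73 ± 0.13, adjusted p = 2.8e-16). Replicate 1 was below every PBS array and the other afatinib arrays were above them all. MX1, a GTPase that blocks viruses, had 5.36, 6.82 and 6.83 against 5.49, 4.99 and 5.14 (1.13 ± 0.19 and 1.62 ± 0.15), and IRF9, the DNA-binding subunit of the interferon-activated complex ISGF3, had 7.09, 8.61 and 9.02 against 7.13, 7.02 and 7.22 (1.12 ± 0.18 and 1.65 ± 0.11). In both, replicate 1 lay in the PBS range. IFI6 had 6.54, 7.21 and 7.51 against 6.38, 5.81 and 6.23, without overlap (0.95 ± 0.15 and 1.17 ± 0.15). Not all members took part: RIGI, a sensor of viral RNA (0.06 and 0.13), and HERC5, the ligase of ISG15 (0.03 and 0.08), did not pass the test in either fit.

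The genes of antigen presentation, many of which respond to interferon, rose in 5 of 15 with all arrays and 10 of 15 without replicate 1, and none fell. Rises over all genes were 5.17% and 9.62% in these fits. PSMB9, an immunoproteasome subunit, had 8.75, 10.21 and 10.24 against 8.95, 8.82 and 8.87 (0.85 ± 0.15 and 1.34 ± 0.07), with replicate 1 below all PBS arrays. PSMB8 rose by 0.49 and 0.76, and TAP1, the peptide transporter, by 0.36 and 0.59.

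Promoters of these genes are shown because ISGF3 and related factors bind a repeated GAAA element. The pattern GAAANNGAAA was searched on both strands in the 300-base RefSeq windows (GRCh38.p14), and capitals mark the matches, which read TTTCNNTTTC where they lie on the other strand. Positions are those of the stretches shown, with flanking bases. That of IFIT3 lies at chr10:89327821-89327904 (plus strand, 176 to 93 bases before the start) and that of MX1 at chr21:41431834-41431883 (plus strand, 216 to 167 bases before). That of IFI6 lies at chr1:27672256-27672368 (minus strand, 176 to 64 bases before) and that of TAP1 at chr6:32853803-32853858 (minus strand, 154 to 99 bases before).
IFIT3: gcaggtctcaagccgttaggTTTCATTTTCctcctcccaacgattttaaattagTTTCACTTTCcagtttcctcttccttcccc
MX1: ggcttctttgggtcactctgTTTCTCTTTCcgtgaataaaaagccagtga
IFI6: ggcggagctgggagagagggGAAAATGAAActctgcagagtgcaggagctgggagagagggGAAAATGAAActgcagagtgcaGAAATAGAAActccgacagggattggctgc
TAP1: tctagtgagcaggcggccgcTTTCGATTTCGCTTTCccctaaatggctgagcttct
The pattern was in 10 of the 14 listed interferon genes with a window (71.4%) and 6 of 11 antigen presentation genes (54.5%), against 1195 of 27305 genes overall (4.38%) and 1 of 14 MAPK genes. It did not sort the interferon genes by response: 6 of the 10 with the pattern rose without replicate 1, and 3 of the 4 without it. HERC5, which did not pass the test, holds 3 matches.

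Chemokine and interleukin genes were called in both directions. CCL2, a monocyte chemokine, had 5.13, 9.26 and 9.35 under afatinib against 6.55, 6.64 and 5.90 under PBS (1.55 ± 0.44, adjusted p = 0.015; 3 ± 0.21, adjusted p = 1.5e-16). Replicate 1 was the lowest of all 6 arrays and the other afatinib arrays the highest. IL1A had 8.06, 7.93 and 7.65 against 9.14, 9.35 and 8.99, without overlap (-1.28 ± 0.23 and -1.32 ± 0.26). Of 17 measured members 1 rose and 2 fell with all arrays, where 5.17% and 4.12% of all genes did, and 3 rose and 2 fell without replicate 1, where 9.62% and 8.51% did. Of 10 eicosanoid enzymes, 5 rose and 1 fell in either fit. Besides CYP4F3 these were CYP4F12, CYP4F2, the prostaglandin-degrading enzyme HPGD and the prostaglandin E synthase PTGES, with PTGS1, a cyclooxygenase, falling by 0.56 (adjusted p = 0.00049). For PTGES the scramble siRNA arrays were 0.62 and 0.68 above PBS.

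Genes of ribosome production fell without any rise, in 6 of 12 with all arrays and 11 of 12 without replicate 1. In these fits 4.12% and 8.51% of all genes fell, and 5.17% and 9.62% rose. NOLC1, a nucleolar chaperone of small RNPs, had 11.36, 11.32 and 11.26 against 11.87, 11.77 and 11.75 (-0.48 ± 0.07, adjusted p = 1.1e-06) and was lower in every afatinib array. The list median was 0.07 in replicate 1, -0.45 in replicate 2 and -0.39 in replicate 3. Among 15 hypoxia and glycolysis genes 2 rose and 4 fell with all arrays, and 3 rose and 8 fell without replicate 1. BNIP3, a mitophagy receptor, had 9.13, 7.84 and 7.70 against 9.17, 9.12 and 8.76, with replicate 1 in the PBS range (-0.80 ± 0.13 and -1.21 ± 0.07), and HK2, the first enzyme of glycolysis, fell by 0.54 and 0.91. Of 27 genes of S, G2 and M phase, 1 rose and 2 fell with all arrays. Without replicate 1, 1 rose and 6 fell, where 8.51% of all genes fell. The list medians were -0.08 and -0.15, and 17, 6 and 3 of the 27 genes were above PBS in replicates 1, 2 and 3. The CDK inhibitor gene CDKN2B had 6.80, 9 and 8.48 against 7.12, 7.37 and 6.37 (1.14 ± 0.25, adjusted p = 0.0013; 1.86 ± 0.17), with replicate 1 inside the PBS range.

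Replicate 1 also differed from the other afatinib arrays on ATF4 and amino acid response genes, which are induced when amino acids are short. The list median was -0.78 in replicate 1, 0.38 in replicate 2 and 0.22 in replicate 3, and it was -0.79 and -0.61 in the scramble siRNA arrays. Over all genes, 5.17% rose and 4.12% fell with all arrays, and 9.62% and 8.51% without replicate 1. With all arrays none of the 14 genes rose and 1 fell, SLC7A11 (-0.51, adjusted p = 0.041). Without replicate 1, 5 rose and none fell, among them PHGDH of serine synthesis (0.72, adjusted p = 3.8e-07), and SLC7A11 had -0.22 (adjusted p = 0.45). The call on SLC7A11 with all arrays was lost without that array. So was that on the receptor feedback inhibitor ERRFI1, which had 8.17, 9.27 and 9.18 against 9.69, 9.79 and 9.59, a change of -0.81 (adjusted p = 0.008) with all arrays and -0.45 (adjusted p = 0.17) without replicate 1. The scramble siRNA arrays were 1.19 and 1.22 below PBS for ERRFI1.

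**Figure D3:**
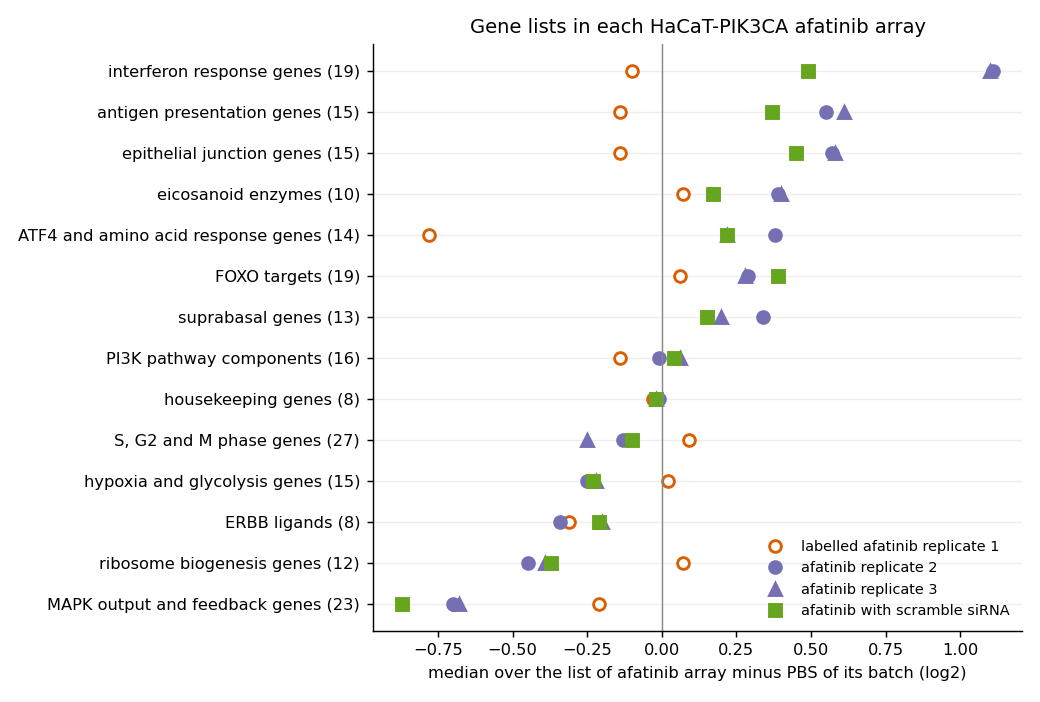
Median log2 difference from the PBS arrays of the same batch for the measured members of each gene list, by afatinib array (replicates 1, 2 and 3), with the afatinib and scramble siRNA array against its own control. Replicates 2 and 3 lie together, as for interferon response genes (1.11 and 1.10) and MAPK output genes (-0.70 and -0.68), while replicate 1 is at -0.10 and -0.21.

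A separate pair of batch E arrays gave afatinib and PBS in HaCaT-PIK3CA cells that had all received scramble siRNA, with 1 array each and so without a test. In that pair, 1787 of the 1902 genes raised without replicate 1 were higher under afatinib (94.0%) and 1623 of the 1683 lowered genes were lower (96.4%), where 47.7% and 52.3% of all genes were. KRT4 was 2.40 higher, TNFSF10 2.33 higher, DUSP6 3.26 lower and ETV5 2.96 lower in that pair. The median for interferon response genes was 0.49 and for MAPK output genes -0.87.

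Knockdown of EGFR itself gave another view of the receptor, with other arrays and other controls (3 siEGFR and 3 scramble siRNA arrays of HaCaT-PIK3CA). EGFR fell by 1.89 (adjusted p = 1.1e-21), 1191 genes rose (6.02%) and 1109 fell (5.61%). Of the genes raised by afatinib without replicate 1, 422 were raised by siEGFR (22.2% of the afatinib genes and 35.4% of the siEGFR genes). Of those lowered, 440 were lowered by siEGFR (26.1% and 39.7%), and 47 raised and 75 lowered genes went the opposite way. TNFSF10 (1.06), CYP4F3 (1.57), TRIM22 (1.22), DUSP6 (-1.21) and IL1B (-0.87) changed in the afatinib direction. KRT4 (0.44, adjusted p = 0.44), KRT13 (0.63, adjusted p = 0.22) and NT5E (-0.52, adjusted p = 0.23) did not pass the test under siEGFR.

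Gefitinib, a reversible EGFR kinase inhibitor, and cetuximab, an antibody to EGFR, were applied to this line at 100 nM (2 and 3 arrays), another dose than that of afatinib, and share its PBS arrays, so their values are set beside those of afatinib without a comparison. The change of KRT4 was 2.33 under afatinib (3.31 without replicate 1), 3.10 under gefitinib and 2.43 under cetuximab. That of DUSP6 was -1.49 (-1.98), -2.96 and -2.58, and that of EGR1 was -1.43 (-1.53), -3.20 and -3.67. The list median of interferon response genes was 0.57 (1.10) under afatinib, 1.00 under gefitinib and 1.02 under cetuximab, and that of MAPK output genes -0.52 (-0.70), -1.07 and -0.76.

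Whether the PIK3CA mutant line answers afatinib differently from the control line was tested as the difference between the responses of HaCaT-PIK3CA and HaCaT-Mock. With all arrays 351 genes had a higher value in HaCaT-PIK3CA (1.77% of those tested) and 432 a lower one (2.18%). Without replicate 1 there were 45 (0.228%) and 124 (0.627%), so there were fewer calls without that array. On the MAPK output list 9 of 23 genes had a higher value in HaCaT-PIK3CA with all arrays, and 2 without replicate 1, ETV5 and DUSP4. ETV5 had 5.15, 4.95 and 5.14 in HaCaT-Mock afatinib arrays against 8.30, 8.22 and 8.47 under PBS, and its change was -2.17 in HaCaT-PIK3CA without replicate 1 and -3.23 in HaCaT-Mock (difference 1.08 ± 0.22, adjusted p = 0.0029). DUSP4, an ERK phosphatase, had a difference of 0.73 ± 0.14 (adjusted p = 0.00099). The differences of DUSP6 (0.66, adjusted p = 0.26) and FOSL1 (0.64, adjusted p = 0.21) passed the test with all arrays only.

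Differences that passed the test in both fits included secreted proteases. MMP10, stromelysin-2, had 5.41, 5.24 and 4.59 in HaCaT-PIK3CA under afatinib and 5.57, 5.93 and 5.41 under PBS, against 7.91, 8.97 and 7.26 in HaCaT-Mock under afatinib and 5.29, 5.61 and 5.42 under PBS. The difference in response was -3.31 ± 0.39 (adjusted p = 9.2e-08) and -3.40 ± 0.41 without replicate 1. MMP10 separated afatinib from PBS in HaCaT-Mock. In HaCaT-PIK3CA the groups met at 5.41, across batches, and the change did not pass the test (-0.56, adjusted p = 0.24). Relative to the PBS arrays of its batch, each HaCaT-PIK3CA afatinib array was lower (-0.35, -0.51 and -0.82 in replicates 1, 2 and 3). MMP13, a collagenase, had a change of 1.02 in HaCaT-PIK3CA and of 3.90 in HaCaT-Mock (difference -2.88 and -2.65). TNFSF10 reached 10.54, 10.92 and 10.30 in HaCaT-Mock under afatinib against 7.17, 6.51 and 7.45 under PBS, and the difference in response was -1.94 ± 0.31 (-1.45 ± 0.25 without replicate 1, adjusted p = 0.00034). IVL had a difference of -1.32 and -0.77 (adjusted p = 0.00029 without replicate 1). RGCC went the other way: its fall was larger in HaCaT-PIK3CA without replicate 1 (-2.42 against -0.65 in HaCaT-Mock; difference -1.76 ± 0.23, adjusted p = 2.2e-06), and with all arrays the difference was -1.07 (adjusted p = 0.073).

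Of the 19 FOXO targets, 3 had a lower response in HaCaT-PIK3CA without replicate 1 and none a higher one, where 0.627% and 0.228% of all genes did. FBXO32, the atrophy ubiquitin ligase atrogin, rose by 0.99 in HaCaT-PIK3CA and by 2.13 in HaCaT-Mock (difference -1.16 ± 0.18, adjusted p = 3.9e-05). CCNG2, cyclin G2, had a difference of -0.64 (adjusted p = 0.017) and BCL6, a transcriptional repressor, of -0.60 (adjusted p = 0.0026). With all arrays 7 FOXO targets had a lower response and 1 a higher one. For TXNIP the difference was -0.25 (adjusted p = 0.85) without replicate 1. The glycolysis gene HK2 fell less in HaCaT-PIK3CA (difference 0.60 ± 0.09, adjusted p = 5.6e-05), and ADM, adrenomedullin, rose less (-0.64, adjusted p = 9.2e-05). None of the 19 interferon response genes had a called difference between the lines without replicate 1 (limma).

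**Figure D4:**
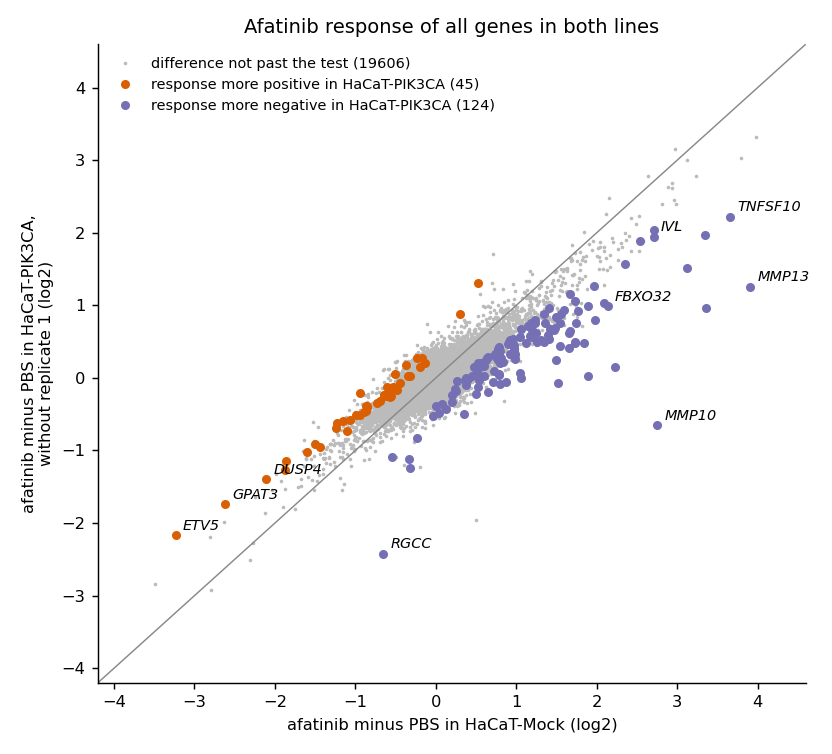
Log2 change under afatinib of each gene in HaCaT-PIK3CA without replicate 1 (y axis) against that in HaCaT-Mock (x axis), with the 45 genes whose difference is higher and the 124 whose difference is lower marked. MMP10, MMP13, TNFSF10 and IVL lie below the diagonal and ETV5 above it.

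HaCaT-HRAS is the other line with a mutation downstream of EGFR, and afatinib changed 880 genes in it. The difference HaCaT-PIK3CA minus HaCaT-HRAS was called for 14 genes upwards (0.0708%) and 28 downwards (0.142%) with all arrays, and for 206 (1.04%) and 166 (0.839%) without replicate 1. KRT4 had 5.45, 4.98 and 5.47 in HaCaT-HRAS under afatinib against 4.6, 5.20 and 5.17 under PBS, which overlap, and the difference in response was 2.02 ± 0.43 (adjusted p = 0.014) and 3 ± 0.21. ETV5 had 8.55, 8.46 and 8.64 against 8.60, 8.61 and 8.71 in HaCaT-HRAS, and the difference was -1.43 ± 0.32 (adjusted p = 0.026) and -2.08 ± 0.22. Of the 23 MAPK output genes 10 fell further in HaCaT-PIK3CA without replicate 1 and none less. Of 19 interferon response genes 4 rose further, and of 13 suprabasal genes 4. TRIM22 (0.46, adjusted p = 0.60), CCL2 (0.34, adjusted p = 0.83) and TMT1A (0.01, adjusted p = 1) rose in HaCaT-PIK3CA without a called difference from HaCaT-HRAS, where their changes were 2.00, 2.67 and 2.11.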

How the data were processed

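RNA from HaCaT cells was hybridised to Affymetrix U133 Plus 2.0 arrays after extraction with RNeasy columns. The authors deposited 1 table of log2 expression values per probe set for 96 arrays. Their methods describe frozen RMA, correction of batch effects and removal of arrays that did not cluster. The steps that went into the table are not given in the sources used here. The submitters' processing notes name affy without a version. Arrays carry no read depth, and their number limits the precision.

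Gene names came from GEO's annotation of the platform (41097 with 1 symbol, 1801 with several, 11777 not listed), and the probe set with the highest mean stood for each of 19775 genes. A linear model with a term per group and array batch was fitted to the 89 HaCaT construct arrays with limma 3.58.1 in R 4.3.3, and p-values were adjusted by Benjamini-Hochberg over all genes. Arrays of batch M carry no replicate number in the labels and were numbered 3. The fit was tested on simulated data before use. Differences of single arrays were taken from the mean of the PBS arrays of the same line and batch.

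Genes named were the 8 largest rises and falls at or above the median level, the 3 or 4 best-supported members of every list by adjusted p, the ERBB receptors and AP-2alpha targets of the study, and the 4 largest differences each way from the other lines. Genes outside this rule, among them IFIT3, FOS, CCND1, SPRY2, SPRY4, RIGI, HERC5, DUSP4, HK2, NRG4, BTC, MMP13, FBXO32, CCNG2 and BCL6, were chosen after their values were seen. The members and the gene lists were chosen with earlier results of these data known. Alternatives covered the arrays in the fit, the batch term, the level filter, the probe set rule, array weights, a replicate block and leaving out single arrays.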

Additional observations from a re-analysis of the deposited data

Results flagged for a closer look

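The afatinib response differed between HaCaT-PIK3CA and HaCaT-Mock cells at 783 genes with all arrays and at 169 without the array labelled afatinib replicate 1, by a test of the difference itself (limma). Between HaCaT-PIK3CA and HaCaT-HRAS it differed at 42 and 372 genes.

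Among genes at the median level or higher, the largest positive differences from HaCaT-Mock with all arrays were in ETV5 (1.71; 1.08 without replicate 1), GPAT3 of triglyceride synthesis (1.35; 0.88), FOSL1 (1.31; 0.64, adjusted p = 0.21) and the hyaluronan synthase HAS3 (1.17; 0.62). The largest negative ones were in MMP10 (-3.31; -3.40), TNFSF10 (-1.94; -1.45), MIR205 (-1.84; -1.18, adjusted p = 0.38) and KRT4 (-1.65; -0.69, adjusted p = 0.11). The calls on FOSL1, MIR205 and KRT4 were thus lost without 1 array. In the fit without replicate 1, 10 of 19 alternatives ended the call on HAS3 (adjusted p up to 0.98), 3 that on GPAT3 (up to 0.67), 3 that on TNFSF10 (up to 0.18) and 1 that on ETV5 (up to 0.40), and none that on MMP10. MIR205 had 4.57, 7.04 and 6.26 under afatinib in HaCaT-PIK3CA, against 6.92, 7.02 and 6.89 under PBS, and its probe set need not report the mature miRNA.

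The largest positive differences from HaCaT-HRAS were in MPPED2 (2.34; 2.65 without replicate 1), KRT4 (2.02; 3), the BMP target ID1 (1.48; 1.77) and the glycerol channel AQP3 (1.28; 1.76). The negative ones were in ETV5 (-1.43; -2.08), IL1B (-1.15; -1.26), NRG1 (-1.09; -1.18) and XDH, xanthine dehydrogenase (-0.96; -1.21). ID1 had 10.91, 11.92 and 11.83 under afatinib and 9.90, 9.92 and 10.17 under PBS in HaCaT-PIK3CA, against 9.17, 9.05 and 9.26 under afatinib and 8.93, 9.29 and 9.03 under PBS in HaCaT-HRAS. The ID1 groups did not overlap in HaCaT-PIK3CA and overlapped in HaCaT-HRAS.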

How the results depend on the processing

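Under the alternatives run, none of the recomputed gene values that passed the test changed sign. Values that did not pass could cross 0, such as EGFR (-0.05 to 0.12 with all arrays) and the differences from HaCaT-Mock of NT5E (-0.17 to 1.08) and KRT13 (-1.23 to 0.13). The excess of rises over falls with all arrays (1023 and 815) turned to more falls with batch J arrays alone (130 rises and 198 falls), with the HaCaT-PIK3CA arrays alone (246 and 269) and without afatinib replicate 2 (362 and 396). The causes of these shifts were not tested. For afatinib against PBS in HaCaT-PIK3CA (1838 genes with all arrays, 3585 without the array labelled afatinib replicate 1), a limma fit on only the compared arrays called 0 genes (1824 at an unadjusted p under 0.05) and 2155. Batch J arrays alone gave 328 and 1981, no batch term 595 and 1619, the HaCaT-PIK3CA arrays alone 515 with all arrays, and array weights, which gave replicate 1 a weight of 0.107, 5268 with all arrays. Leaving out 1 array gave 758 to 3585 genes (758 without afatinib replicate 2, 840 without replicate 3), and 2132 to 3164 from the fit without replicate 1 (2132 without afatinib replicate 2 as well). The replicate numbers share only a label (correlation of deviations 0.037), and a replicate block gave 1878 and 3446 genes in the full model, and on the compared arrays only 0 (2153 at an unadjusted p under 0.05) and 1634. No block was run for the differences between lines.

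For the difference from HaCaT-Mock (783 and 169 genes), the compared arrays alone gave 3 and 11, batch J 53 and 21 and no batch term 111 and 28. Without replicate 1, array weights gave 788 and genes at the median level or higher 261. Leaving out 1 array gave 169 to 1691 genes with all arrays. In HaCaT-PIK3CA this was 169, 1691 and 1519 without afatinib replicates 1, 2 and 3 and 441 without PBS 2. In HaCaT-Mock it was 475 and 407 without afatinib 1 and 3, and 469 and 473 without PBS 2 and 3. From the fit without replicate 1 the range was 74 to 172 (afatinib 2 left out 95, afatinib 3 74, PBS 2 105, HaCaT-Mock afatinib 3 107). For the difference from HaCaT-HRAS (42 genes), the compared arrays gave 3, batch J 17, no batch term 10 and array weights 831, and leaving out 1 array 23 to 372 (372, 27 and 23 without afatinib 1, 2 and 3, and 27 without PBS 2). Where 1 array of a group was left, it was assumed to vary like the other groups.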
